A study of Mus musculus with 4 samples.

Results

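The stage markers of bone marrow B cell precursors were a set of 9 genes, Enpep, Cd24a, Spn, Cd93, Mme, Cd2, Il2ra, Bst1 and Arpp21, chosen by name from the 19297 genes measured. The 9 genes and the lists set beside them were chosen with earlier results of these data known. Their shares of calls beside that of all genes are thus a description. Each of the 9 was read by 1 probe set, and its values are log2 expression values of whole spleen RNA. The leukaemic spleens came from 2 mice of genotype RBP-J flox/flox;Ren1dcre/cre, in which cre recombinase sits at both alleles of the renin gene Ren1d, so that cre is made where renin is expressed. The wild type spleens came from 2 mice of genotype RBP-J flox/flox;Ren1d+/+. Floxed alleles of RBP-J, which encodes the DNA-binding partner of Notch receptors, were therefore shared by both groups, as was the 129Sv background. The leukaemic mice, replicates 1 and 2, had reached an age of 107 and 93 days and their spleens weighed 0.7 g and 0.47 g. The wild type mice had reached 80 and 81 days, with spleen weights of 0.12 g and 0.16 g. Leukaemic replicate 2 was male and the other mice were female. Cre, age and spleen weight cannot be told apart from the leukaemia in these groups.

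B cell precursors in mouse bone marrow are ordered by surface markers that appear and disappear as the immunoglobulin genes are rearranged. CD43 (Spn) marks the pro-B stages, heat-stable antigen (Cd24a) appears on pro-B cells, and BP-1 (Enpep) appears on late pro-B and large pre-B cells. CD25 (Il2ra) and CD2 are used for pre-B cells that have passed the checkpoint of the pre-B cell receptor, and CD93 is kept from the precursors to the transitional B cells of the spleen and is lost on mature B cells. The comparison of leukaemic with wild type spleens asks which of these markers mark the leukaemic spleen.

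Of the 9 markers, 4 rose in leukaemic spleen (Enpep, Arpp21, Cd93 and Bst1), 0 fell and 5 did not pass the test. A gene was called when limma's moderated test, adjusted by the Benjamini-Hochberg method over all 19297 genes, gave an adjusted p under 0.05. Over all genes, 1.43% were called higher, 1.03% lower and 2.46% in either direction, and 20.7% (3989) had an unadjusted p under 0.05, the share against which the unadjusted counts of gene lists below stand. The median difference of leukaemic minus wild type was 0.57 over the 9 markers and -0.03 over all genes (log2). The leukaemic arrays lay wholly above the wild type arrays for the 4 genes that rose and wholly below them for Cd2 and Spn. Among all genes, 23% were wholly higher, 26.2% wholly lower and 49.2% apart in either direction. A pair of mice against a pair has a smallest exact two-sided permutation p of 0.333, so calls rest on the spread that limma shares across genes. Whole spleen RNA does not tell fewer cells of a type apart from less RNA per cell. When leukaemic replicate 2 was left out, more genes were called over all genes as well, in both directions. With either leukaemic mouse left out, all genes were given a common variance from the wild type pair. The list counts of both such fits given below are therefore not read as a trait of a list.

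**Figure D1:**
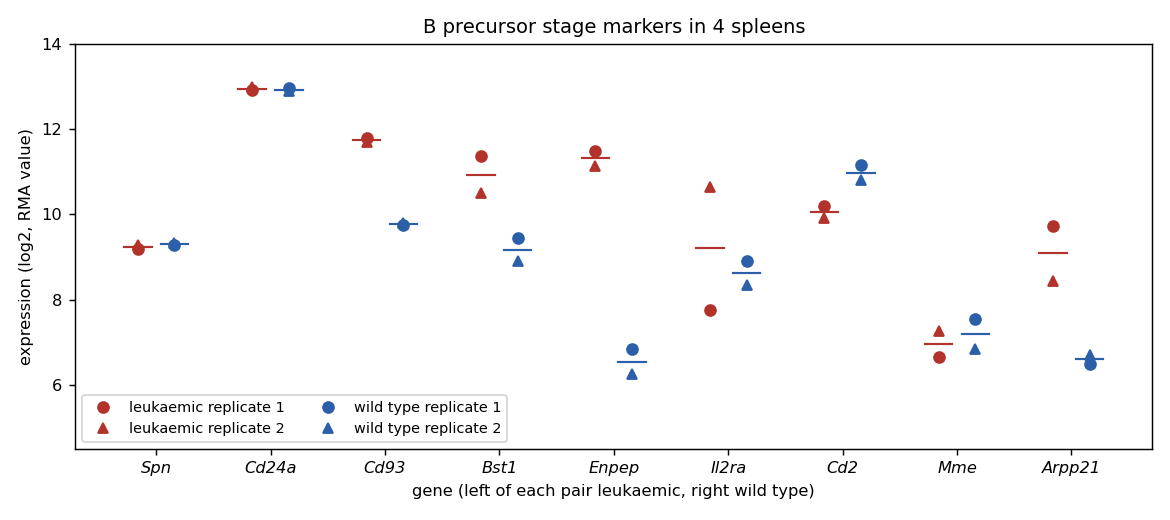
Expression (log2) of the 9 markers in each spleen, ordered from markers of early precursor stages on the left to Mme and Arpp21 on the right, with leukaemic spleens in red left of wild type spleens in blue and a line at each mean of 2 mice. Enpep, Cd93, Bst1 and Arpp21 stand higher in both leukaemic spleens, and the leukaemic values of Il2ra, 7.76 and 10.64, lie on either side of the wild type values.

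The spleens were checked by markers and by array. Medians of the 4 arrays were similar, at 7.96 to 8.03. The lower quartile was 6.62 in wild type replicate 2 and 6.43 to 6.47 in the other arrays. The upper quartile was 9.50 in wild type replicate 2 and 9.58 to 9.59 in the others, so that array had the narrower spread. The B cell receptor gene Cd79a read 12.49 in both leukaemic spleens, against 12.54 and 12.28 in wild type. Spic, a transcription factor of red pulp macrophages, read 10.24 and 10.46 in leukaemic spleens and 11.23 and 10.84 in wild type. Wild type replicate 2 stood apart in all 17 measured genes of the exocrine pancreas list, which lay at least 1 (log2) above the other arrays there; their mean was 11.13, against 6.38 to 6.51 elsewhere. Rbpj, the floxed gene, read 9.78 and 9.18 in leukaemic spleens and 9.99 and 9.74 in wild type (limma adjusted p = 0.41), but it is not known here whether the probe set lies in the floxed part, so this does not check the genotype. Calls moved with the mice: without wild type replicate 2 limma called 0 of the 19297 genes (3142 at an unadjusted p under 0.05), and without wild type replicate 1 it called 12 higher and 26 lower. The 4 called markers became 0 and 1 (Enpep) in these fits, and every list of other genes described below had 0 calls in both, except for 4 of the early precursor genes without wild type replicate 1 and 14 exocrine pancreas genes there.

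Spn and Cd24a were at similar levels in both groups. Spn, the sialomucin CD43, read 9.20 and 9.28 in leukaemic replicates 1 and 2, against 9.28 and 9.34 in wild type replicates 1 and 2. The difference of -0.07 had a 95% interval of -0.39 to 0.25 (log2, limma adjusted p = 0.87). The groups did not overlap, but by less than 0.01, and the values of all 4 mice lay close together.

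Cd24a, the small glycolipid-anchored protein known as heat-stable antigen, read 12.91 and 12.99 in leukaemic spleens and 12.96 and 12.89 in wild type spleens. The groups overlapped, and the difference was 0.02, with a 95% interval of -0.30 to 0.35 (limma adjusted p = 0.96). These values are close to the top of the arrays, whose highest readings were 13.68 to 13.69. Whether this limited a rise was not tested. CD43 and CD24 are also carried by other leukocytes, CD43 by T cells and neutrophils and CD24 by neutrophils and erythroid precursors. Of the neutrophil genes 3 of 12 fell and none rose, while 0 fell after quantile normalization and 11 with a block for replicate number. Their list mean was 9.48 and 10.34 in leukaemic replicates 1 and 2, against 11.07 in both wild type spleens. Of 11 erythroid genes 0 passed in either direction with limma (5 at an unadjusted p under 0.05, against 20.7% of all genes), and their mean was 11.03 and 10.77 in leukaemic spleens, against 11.10 and 11.66 in wild type. The part of these cells in the level readings of Spn and Cd24a was not tested.

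Cd93, the C1q-receptor-like glycoprotein recognised by the antibody AA4.1, read 11.79 and 11.69 in leukaemic spleens, against 9.74 and 9.81 in wild type spleens. Both leukaemic values lay well above both wild type values, and the mice within a group differed by 0.10 and 0.06. Cd93 rose by 1.96 (log2, SE 0.14, limma adjusted p = 0.0023), which is 3.90-fold (95% interval 3.11 to 4.89). The call ended without wild type replicate 1 (limma adjusted p = 0.062) or replicate 2 (0.13), while the difference was 1.93 and 2.00 there. Endothelial cells and macrophages also carry CD93. Of 12 endothelial genes 0 were called by limma (2 at an unadjusted p under 0.05, against 20.7% of all genes), with a median difference of 0.04. Their list mean was 9.30 and 9.02 in leukaemic spleens and 9.17 and 9.18 in wild type spleens. Vwf, a clotting factor of endothelium and platelets, and Tek, the angiopoietin receptor, had differences of -0.72 and 0.59 (limma adjusted p = 0.092 and 0.14). In the monocyte and macrophage list 0 of 12 passed with limma (8 at an unadjusted p under 0.05, against 20.7% of all genes). Its mean was 9.86 and 10.00 in leukaemic spleens, against 10.52 and 10.30 in wild type. The macrophage lectin Siglec1 and the scavenger receptor Marco differed by -0.95 and -0.93 (limma adjusted p = 0.060 and 0.085).

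Bst1, the cell surface enzyme BP-3 or CD157, which is found on early B precursors, stromal cells and myeloid cells, read 11.37 and 10.50 in leukaemic spleens and 9.44 and 8.91 in wild type spleens. The groups did not overlap, while leukaemic replicate 1 stood 0.87 above replicate 2 and wild type replicate 1 stood 0.54 above replicate 2. Bst1 rose by 1.76 (log2, SE 0.31, limma adjusted p = 0.041), or 3.38-fold (95% interval 2.04 to 5.60). The call was close to the threshold and ended after quantile normalization (limma adjusted p = 0.070), with a trended prior (0.060), with all probe sets in the fit (0.053), with a minimum change of 0.5 (0.27) and without wild type replicate 1 (0.15) or replicate 2 (0.23). In the stroma list 1 of 12 genes was called, the chemokine gene Ccl19, and it was lower (-1.19, SE 0.22, limma adjusted p = 0.048); without leukaemic replicate 1 and 2 the list had 0 and 3 lower. The stroma mean was 9.39 and 9.36 in leukaemic spleens, against 9.93 and 9.59 in wild type. Of the neutrophil list, the granule peptide gene Camp and the cytokine receptor gene Csf3r fell by 1.24 and 1.22 (limma adjusted p = 0.041 and 0.034).

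Enpep, which encodes the surface aminopeptidase BP-1, had the highest fold of the 9 markers. It read 11.49 and 11.14 in leukaemic spleens, against 6.84 and 6.25 in wild type spleens. Both leukaemic values stood above the upper quartile of their arrays (9.59 and 9.58), while the wild type values lay around the lower quartile, 6.43 and 6.62 in wild type replicates 1 and 2. Enpep rose by 4.77 (log2, SE 0.23, limma adjusted p = 0.00067), the rank 2 rise among 19297 genes. The ratio was 27.3 (95% interval 18.7 to 39.9). The call ended without wild type replicate 2 (limma adjusted p = 0.094), where the difference was 4.47. No detection calls were analysed here, so the wild type level is not shown to be above background and the ratio is not an exact fold.

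The promoter of Enpep is shown because Enpep had the highest fold of the 9 markers. It is set beside a promoter window of Arpp21, the next marker by size of rise. The RefSeq table (GRCm38.p6) held windows of 250 bases before to 50 bases after a start site for 5 of the 9 markers, Enpep, Spn, Mme, Il2ra and Arpp21. For Arpp21, which has 9 listed windows, the most upstream of these is printed. The annotated gene reaches 112236288 on chromosome 9, upstream of that window, and no window was listed for that end. Capitals mark matches to CANNTG (an E-box, the core that E proteins bind), TTCNNNGAA (a STAT core) and GAGGAA (a form of ETS site, also as its reverse complement). Other forms of ETS site were not searched or marked.
Enpep, chr3:129332700-129332999, minus strand: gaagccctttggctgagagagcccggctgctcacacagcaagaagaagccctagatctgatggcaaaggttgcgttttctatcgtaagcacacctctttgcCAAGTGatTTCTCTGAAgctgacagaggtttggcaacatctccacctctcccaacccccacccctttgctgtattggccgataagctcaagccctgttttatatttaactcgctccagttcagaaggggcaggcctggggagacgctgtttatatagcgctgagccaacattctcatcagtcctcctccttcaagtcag
Arpp21, chr9:112233673-112233972, minus strand: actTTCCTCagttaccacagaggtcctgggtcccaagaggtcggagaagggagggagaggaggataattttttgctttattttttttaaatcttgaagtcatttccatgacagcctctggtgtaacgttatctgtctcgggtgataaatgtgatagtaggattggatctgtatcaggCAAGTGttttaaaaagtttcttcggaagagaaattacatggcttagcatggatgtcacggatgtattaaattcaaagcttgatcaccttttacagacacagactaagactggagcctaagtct
The Enpep window held 1 E-box, 149 bases before the start site, and 1 STAT core, 141 bases before it, with no overlap. The Arpp21 window held 1 E-box, 73 bases before the start site, and 1 match to GAGGAA, 247 bases before it. The STAT core also stands in a window of Mme, which was not called, 166 bases before its start site. A second Arpp21 window, chr9:112233263-112233562, held 1 E-box, 1 STAT core and 1 match to GAGGAA. Both E-boxes of the printed windows have the form CAAGTG, a likeness noticed after the sequences were read. That form stands in 13.6% of 32851 promoter windows on either strand, and also in the window of Spn, which was not called. E-boxes of any form stand in 72.3% of windows, the STAT core in 8.3% and GAGGAA in 28.3%. The window of Il2ra held none of these letters. A match in these letters is a description and not a site of binding.

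Arpp21, a cAMP-regulated phosphoprotein with an R3H domain whose thymocyte form is called TARPP, read 9.73 and 8.45 in leukaemic spleens, against 6.50 and 6.70 in wild type spleens. The groups did not overlap, and the leukaemic mice differed by 1.28 while the wild type mice differed by 0.20. That gap between leukaemic mice ranked 139 among all genes. Arpp21 rose by 2.49 (log2, SE 0.38, limma adjusted p = 0.032), a ratio of 5.62 (95% interval 3.03 to 10.4). Its wild type readings also lay near the lower quartile of the arrays, so this ratio is not an exact fold either. The call ended after quantile normalization (limma adjusted p = 0.058), with a trended prior (0.076), with a minimum change of 0.5 (0.13) and without wild type replicate 1 (0.16) or replicate 2 (0.19). The difference was 1.85 without leukaemic replicate 1 and 3.13 without leukaemic replicate 2.

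Arpp21 is the host gene of a microRNA, Mir128-2, on the same strand. Its mature products are shown because a probe set for it was on the array; capitals mark the seed, bases 2 to 8, and the sequences are those of RefSeq (GRCm38.p6).
mmu-miR-128-3p, chr9:112118644-112118664, minus strand: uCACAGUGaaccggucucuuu
mmu-miR-128-2-5p, chr9:112118679-112118701, minus strand: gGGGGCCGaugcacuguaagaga
The Mir128-2 probe set read 7.26 and 7.34 in leukaemic spleens, against 7.09 and 7.48 in wild type spleens. The groups overlapped, with a difference of 0.01 (SE 0.17, limma adjusted p = 0.99), beside the rise of 2.49 of its host gene. The sources used here do not say whether that probe set reads the hairpin or a mature form. Mir128-1, which lies on chromosome 1 and gives the same 3p product, differed by 0.30 (SE 0.13, limma adjusted p = 0.27).

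**Figure D2:**
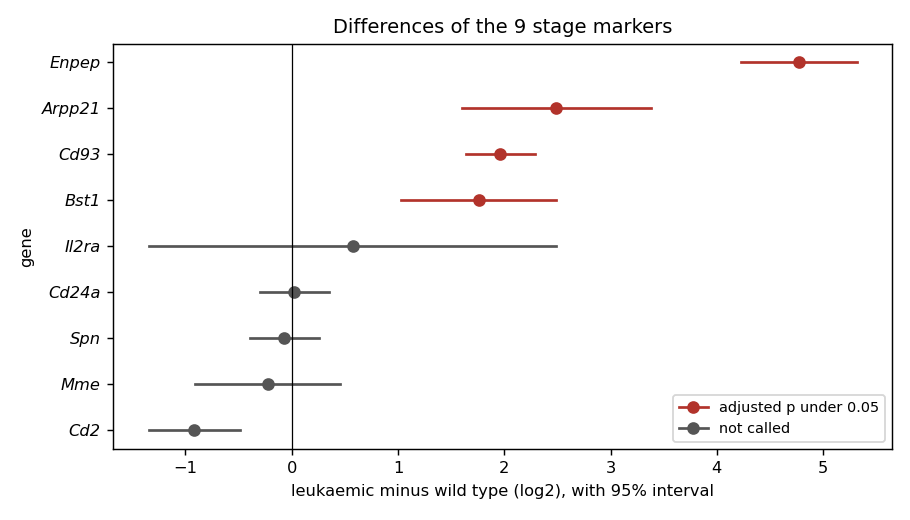
Difference of leukaemic minus wild type (log2) of the 9 markers, with points for the estimates and bars for the 95% interval of the limma fit on 2 mice per group. Enpep, Arpp21, Cd93 and Bst1 lie right of 0 and are called, and Il2ra has the widest interval, -1.34 to 2.49.

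The markers of pre-B cells past the receptor checkpoint gave other results. Il2ra, the alpha chain of the interleukin-2 receptor, read 7.76 in leukaemic replicate 1 and 10.64 in leukaemic replicate 2, against 8.91 and 8.34 in wild type spleens. Leukaemic replicate 1 was thus below both wild type mice and leukaemic replicate 2 above both. The groups differed by 0.57 (SE 0.81, limma adjusted p = 0.80), which is not a call. Without leukaemic replicate 1 it was 2.02, while without leukaemic replicate 2 it was -0.87. Such a fit holds no spread between leukaemic mice, so only these differences are given. The leukaemic mice differed by 2.88 in Il2ra, or 7.38-fold. That was the rank 12 gap between them among 19297 genes, of which the median gap was 0.12 and the 95th percentile 0.57. The wild type mice differed by 0.57.

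Regulatory T cells also carry CD25. Of the 7 genes of their list, 0 were called by limma (4 at an unadjusted p under 0.05, against 20.7% of all genes). The costimulatory receptor gene Tnfrsf18 read 7.98 and 8.39 in leukaemic replicates 1 and 2, against 9.29 and 9.003 in wild type (limma adjusted p = 0.054). The transcription factor gene Ikzf2 read 8.06 and 8.30 in leukaemic replicates 1 and 2, against 8.90 and 8.80 in wild type (limma adjusted p = 0.068). Of the 7 genes, 4 were higher in leukaemic replicate 1 and 3 in leukaemic replicate 2, with Tnfrsf18 and Ikzf2 among those 3. Foxp3, not named by the rule, was among the 4. It read 8.03 and 7.98 in leukaemic replicates 1 and 2, against 8.57 and 8.54 in wild type (limma adjusted p = 0.078). The list mean was 7.98 and 8.01 in leukaemic spleens and 8.50 and 8.40 in wild type spleens. Leukaemic replicate 2 was also the male, the younger and the mouse with the smaller spleen of the leukaemic pair. The part of regulatory T cells in the Il2ra readings was not tested.

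Cd2, an adhesion receptor of T cells, NK cells and B cells from the small pre-B stage on, read 10.20 and 9.93 in leukaemic spleens, against 11.16 and 10.81 in wild type spleens. Both leukaemic values lay below both wild type values, in replicate 2 as well, where Il2ra was high. The difference was -0.92 (SE 0.18), a ratio of 0.53 (95% interval 0.39 to 0.71). It did not pass the threshold (limma adjusted p = 0.054), and was called lower with a trended prior (limma adjusted p = 0.023) and with the replicate block (0.0036). The difference without leukaemic replicate 1 was -1.055. Genes of T cells were lower in the same spleens: 8 of 13 fell and 0 rose, with a median of -1.47. The number that fell was 2 after quantile normalization, 4 with all probe sets in the fit and 12 with the replicate block. With the minimum change of 0.5 it was 0. The T cell list mean was 8.17 and 8.97 in leukaemic spleens, against 10.23 and 9.82 in wild type. The CD3 chain genes Cd3g and Cd3e fell by 1.78 (SE 0.33) and 1.70 (SE 0.29), with limma adjusted p = 0.049 and 0.039. Among the NK cell genes 4 of 9 fell (1 after quantile normalization and 7 with the replicate block). The NK list mean was 6.43 and 6.96 in leukaemic spleens and 8.12 and 7.73 in wild type. The NK receptor genes Ncr1 and Klrd1 fell by 2.29 and 2.05. The part of T and NK cells in the Cd2 difference was not tested.

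Mme, the neutral endopeptidase CD10, known in human as a marker of early B precursors, read 6.65 and 7.27 in leukaemic spleens and 7.54 and 6.84 in wild type spleens. The groups overlapped, and the mice of each group differed by 0.63 and 0.70. The difference of -0.23 had a 95% interval of -0.91 to 0.45 (limma adjusted p = 0.77), and its sign turned without wild type replicate 1 (0.12) or leukaemic replicate 1 (0.09). These readings, too, are not shown to be above background.

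In order of their differences the markers ran Enpep, Arpp21, Cd93, Bst1, Il2ra, Cd24a, Spn, Mme and Cd2. The intervals of Arpp21, Cd93 and Bst1 overlapped each other, and that of Enpep lay above them. The interval of Cd2 lay wholly below those of Enpep, Arpp21, Cd93, Bst1, Cd24a and Spn. These are differences within 1 probe set each, and levels of different probe sets are not compared.

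**Figure D3:**
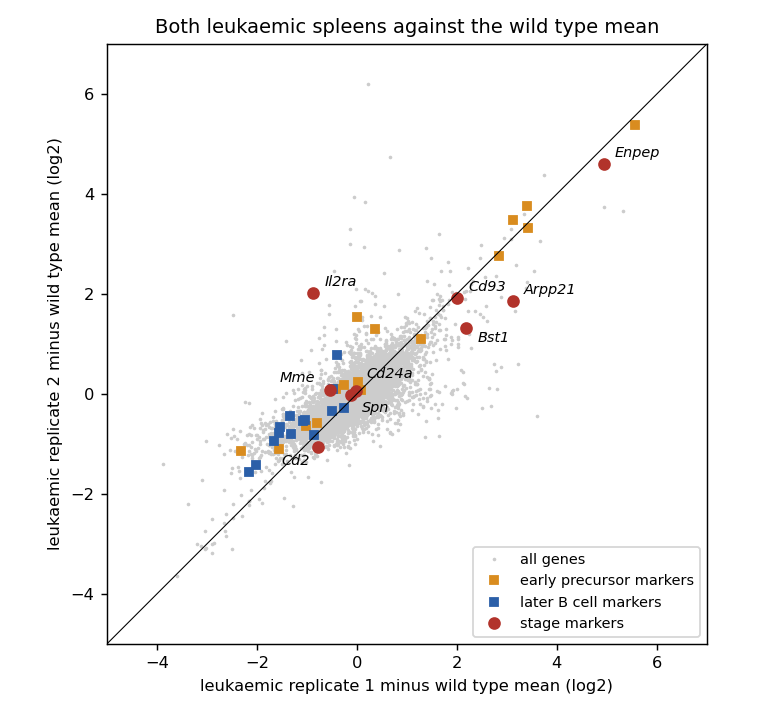
Difference from the wild type mean (log2) in leukaemic replicate 1 on the horizontal axis and leukaemic replicate 2 on the vertical axis, with the 9 stage markers in red, 16 other early precursor genes in orange, 14 later B cell genes in blue and all genes in grey; the line marks equal differences. Il2ra lies far above the line, at -0.87 and 2.02, and Arpp21 and Bst1 lie below it, at 3.13 and 1.85 and at 2.19 and 1.33.

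Set against the wild type mean, leukaemic replicates 1 and 2 stood at 4.95 and 4.60 for Enpep and at 2.01 and 1.92 for Cd93, which were close to each other. For Arpp21 they stood at 3.13 and 1.85 and for Bst1 at 2.19 and 1.33, higher in replicate 1. Over the 9 markers 5 were higher in replicate 1 and 4 in replicate 2.

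Other genes used to follow early B precursors were counted as context, from a list that shares no gene with the 9 markers. Of 16 measured, 6 rose, 1 fell and 9 did not pass, with a median difference of 0.45. Those that rose were the surrogate light chain genes Igll1, Vpreb1, Vpreb2 and Vpreb3 and the recombinase genes Rag1 and Rag2. Igll1 read 13.02 and 12.85 in leukaemic spleens, against 7.44 and 7.48 in wild type, a rise of 5.47 (SE 0.14). Rag1 rose by 3.57 (SE 0.19). The gene that fell was Flt3, a cytokine receptor of early progenitors (-1.33, SE 0.19, limma adjusted p = 0.027). In the same spleens 5 of 9 dendritic cell genes fell, as given below. The part of dendritic cells in the Flt3 difference was not tested. Without leukaemic replicate 1 and 2 the list had 8 and 6 higher and 2 and 3 lower.

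Some members of that list not named by the rule, chosen here after their values were seen, differed between the leukaemic mice. Dntt, the terminal transferase of pro-B cells, read 6.51 in leukaemic replicate 1 and 8.05 in leukaemic replicate 2, against 6.46 and 6.54 in wild type. Il7r, the interleukin-7 receptor chain, read 11.21 and 12.16 in leukaemic replicates 1 and 2, against 11.01 and 10.71 in wild type. Kit, the stem cell factor receptor of early pro-B cells, read 8.83 and 9.34 in leukaemic spleens and 9.26 and 9.24 in wild type. None of these 3 passed (limma adjusted p = 0.39, 0.18 and 0.74). Ly6d read 9.24 and 10.42 in leukaemic replicates 1 and 2, against 11.82 and 11.29 in wild type, and was not called (limma adjusted p = 0.064). Of the 16 genes, 8 lay wholly higher in leukaemic spleens and 4 wholly lower, against 23% and 26.2% of all genes. The 4 were Flt3, Ly6d, Cd9 and Ptprc. Replicate 2 was the higher leukaemic mouse for 12 of the 16 genes. That was not particular to this list. It was also the higher for 13 of 13 T cell, 9 of 9 NK cell, 12 of 12 neutrophil and 7 of 7 plasma cell genes. It was the higher for 2 of 11 erythroid and 1 of 12 endothelial genes.

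Genes of later B cells were counted in the same way. Of 14 measured, 3 fell and 0 rose (2 and 9 fell without leukaemic replicate 1 and 2), with 11 at an unadjusted p under 0.05, against 20.7% of all genes, and a median difference of -0.87. Cr2, the complement receptor CD21, fell by 1.86 (SE 0.24), and Ltb, lymphotoxin beta, by 1.72 (SE 0.22). The remaining call was Cd22, an inhibitory receptor, at -0.84 (SE 0.14). Leukaemic replicate 2 was the higher leukaemic mouse for 13 of the 14. In the dendritic cell list 5 of 9 fell (7 without leukaemic replicate 1), with Siglech at -2.15 and Ccr9 at -2.02. Of 7 plasma cell genes 1 rose, the transcription factor gene Irf4 (1.02, SE 0.16), which also acts in pre-B cells. That call was lost without leukaemic replicate 2, where the list had 1 lower.

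**Figure D4:**
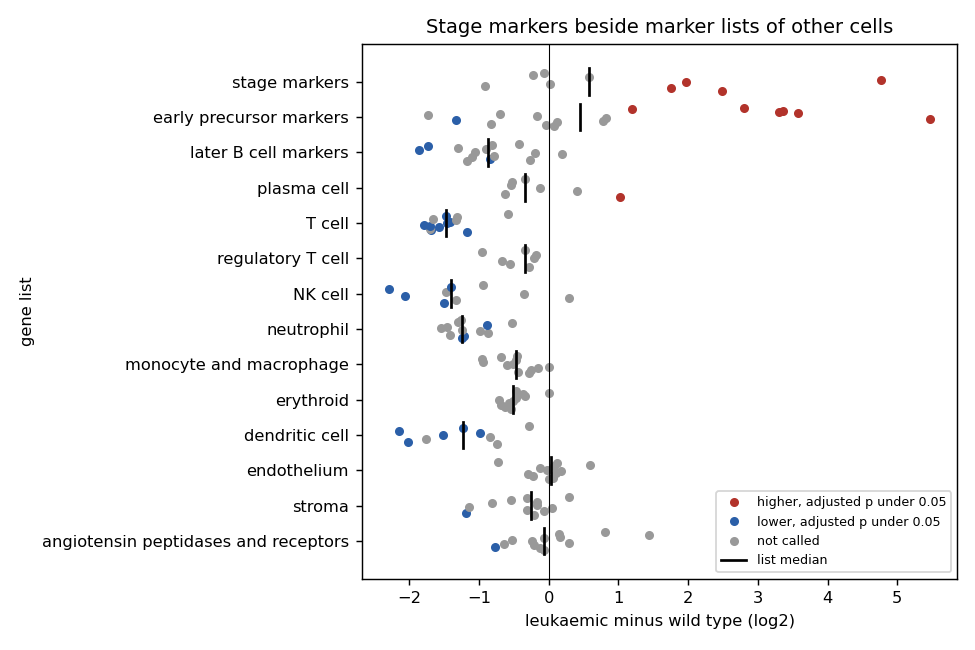
Difference of leukaemic minus wild type (log2) for each gene of the stage markers and of 13 other lists, 1 point per gene, coloured by call, with a bar at each list median. Called rises stand among the stage markers (4 of 9), the early precursor markers (6 of 16) and the plasma cell list (1 of 7), and called falls stand mostly in the T cell (8 of 13), dendritic cell (5 of 9) and NK cell (4 of 9) lists.

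Enpep and Mme have a role outside B cells, since both encode peptidases that cut angiotensin peptides, BP-1 being aminopeptidase A. Of 13 other measured angiotensin peptidase and receptor genes 0 rose and 1 fell, the angiotensin receptor gene Agtr1a (-0.77, SE 0.14, limma adjusted p = 0.048), with a median of -0.07. Without leukaemic replicate 1 the list had 1 higher and 0 lower, and without leukaemic replicate 2 it had 2 higher and 1 lower. The Agtr1a readings were 9.55 and 9.59 in leukaemic spleens, against 10.25 and 10.43 in wild type. Anpep, the related aminopeptidase N, was not named by the rule and read 8.75 and 8.55 in leukaemic spleens and 9.31 and 9.26 in wild type (limma adjusted p = 0.069). Prep, a prolyl endopeptidase also outside the rule, read 12.61 and 11.74 in leukaemic spleens and 10.86 and 10.60 in wild type (limma adjusted p = 0.052).

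The genes closest in pattern to each marker that rose were found by the root mean square difference of log2 values over the 4 arrays after each gene's mean was taken off. Closest to Enpep were Igll1 (0.42), Raet1d, an NKG2D ligand gene (0.51), and Crhbp, which binds corticotropin-releasing hormone (0.51), where the median of all genes was 2.42. Closest to Cd93 were Pcdh9, a protocadherin gene (0.08), Erg, an ETS family transcription factor gene (0.09), and Epb41l5 (0.10), against a median of 1.004. Erg read 10.54 and 10.43 in leukaemic spleens and 8.28 and 8.52 in wild type.

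Closest to Bst1 were Maoa, monoamine oxidase A (0.09), Dcbld1 (0.10) and Tmem263 (0.14), none of which passed the test (limma adjusted p = 0.054, 0.054 and 0.051). Closest to Arpp21 were Akr1c18, a steroid dehydrogenase gene (0.09), Tmem255a (0.16) and Bcat1, the cytosolic branched-chain aminotransferase (0.27). Akr1c18 read 9.28 and 7.78 in leukaemic spleens and 6.005 and 6.23 in wild type, with the same order of leukaemic mice as Arpp21. With 4 arrays this likeness is a description.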

How the data were processed

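Total RNA of 4 spleens was labelled for Affymetrix whole-transcript arrays, 1 array per mouse. The deposited values are log2 expression, 1 per probe set and mouse, made by the authors; RMA, R 2.15.0 and limma 3.12.1 are named in the submitters' processing notes, with settings and genome build not given in the sources used here. The number of arrays limits the precision. Of 23309 probe sets, 20729 had 1 gene symbol in the platform annotation, 1174 several and 1406 none; only the first class was named. Entrez identifiers of 20686 matched a mouse gene table, which changed 0 symbols. For 804 genes with several probe sets the highest mean over the 4 arrays was taken, after the fit and before adjustment; each of the 9 markers had 1.

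Samples were grouped by title. The groups were tested with limma 3.58.1 (lmFit, then eBayes; no covariate, no filter; R 4.3.3), with 2 residual and 4.83 prior degrees of freedom, and p-values adjusted by the Benjamini-Hochberg method. Values are per mouse, with standard errors (SE) and 95% intervals from the moderated fit. The scripts were tested on simulated data. Tables were handled in Python 3.11.15 with pandas 2.3.3. The replicate numbers are not said to pair mice (correlation of same-numbered deviations -0.09). The markers and the marker lists were chosen with earlier results of these data known. List members with no single-symbol probe set were not analysed here. Named from each list were up to 2 called genes of largest rise and up to 2 of largest fall, or, in lists without a call, the 2 of smallest p, plus the 3 nearest genes in pattern of each called marker. Alternatives were array centring, quantile normalization, leaving out the dimmest 33.3% of genes, a trended robust prior, a minimum log2 change of 0.5, the probe set of largest SD, all probe sets in the fit, a replicate block and each mouse left out.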

Additional observations from a re-analysis of the deposited data

How the results depend on the processing

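Of the 9 markers, 4 were called higher and 0 lower; quantile normalization gave 2 and 0, the trended robust prior 2 and 1, the minimum change of 0.5 gave 2 and 0, and the replicate block 4 and 1. Leaving out 1 mouse gave 0 to 5 higher and 0 to 1 lower, with 0 higher without wild type replicate 2 and 1 (Enpep) without wild type replicate 1. Fits without a mouse have 1 residual degree of freedom, and the lone mouse is assumed to vary like the other group. Without a leukaemic mouse the prior degrees of freedom were infinite, so all genes were given a common variance from the wild type pair. Without leukaemic replicate 2 more genes were called over all genes too, in both directions. Cd93 and Enpep were called in each fit that kept all 4 mice, with Enpep between 4.47 and 5.07 and Cd93 between 1.92 and 2.03 (log2) over the 12 alternatives. Signs turned for Cd24a without wild type replicate 2 (-0.011) or leukaemic replicate 2 (-0.018; range with a mouse left out to 0.066), for Mme without wild type replicate 1 (0.12) or leukaemic replicate 1 (0.086; range from -0.57), and for Il2ra without leukaemic replicate 2 (-0.87; range to 2.02). The causes were not tested.

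Early precursor genes, 6 higher and 1 lower, had 3 lower with the trended prior, 0 with the minimum change and 4 with the replicate block, and 0 to 8 higher and 0 to 3 lower with a mouse left out. Later B cell genes, 3 lower, had 5, 0 and 10 lower under those settings and 0 to 9 with a mouse left out. Angiotensin genes, 0 higher and 1 lower, had 1 higher and 0 lower after centring, 2 and 2 with the block, 0 lower with quantile normalization, with the minimum change and with all probe sets, and 0 to 2 higher and 0 to 1 lower with a mouse left out. Genes of the other cell types, 1 higher and 21 lower, had 0 and 7 with quantile normalization, 0 and 2 with the minimum change, 12 lower with all probe sets, 47 with the block, and 0 to 1 higher and 0 to 42 lower with a mouse left out. Over all genes, 276 higher and 199 lower became 168 and 93 with quantile normalization, 509 and 456 with the trended prior, 48 and 7 with the minimum change, and 785 and 908 with the block. After centring they were 350 and 147. The replicate numbers share no stated litter or batch, so calls under the block are not read as a pairing. The replicate block left 1 residual degree of freedom. Low readings, as of Enpep and Arpp21 in wild type and of Mme, are not shown to be above background.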

Other observations

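Among 19297 genes, 9 stood higher in leukaemic replicate 2 than in leukaemic replicate 1 by at least the gap of Il2ra, a list made after the data were seen. Of these, 3 were the Y-linked genes Eif2s3y, Uty and Kdm5d, and replicate 2 was the male. The other 5 beside Il2ra were Fcrl6, Klk1b22, Fetub, Ccdc38 and Lonrf3. Fcrl6, an Fc receptor-like gene, read 6.97 and 11.04 in leukaemic replicates 1 and 2, against 6.24 and 6.36 in wild type. Fetub, a fetuin gene, read 5.31 and 9.002 in leukaemic replicates 1 and 2, against 5.11 and 5.20 in wild type. Klk1b22, a kallikrein gene, read 6.25 and 10.29 in leukaemic replicates 1 and 2, but also 10.35 and 7.09 in wild type replicates 1 and 2.

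By the same measure of pattern, added for Il2ra after the data were seen, the closest genes were Steap4 (0.22), S100a6 (0.28) and Lonrf3 (0.38), where the median of all genes was 1.11. S100a6, a calcium-binding protein gene, read 7.65 and 9.82 in leukaemic replicates 1 and 2, against 8.33 and 8.10 in wild type. Steap4, a metalloreductase gene, read 7.38 and 9.71 in leukaemic replicates 1 and 2, against 8.07 and 7.79 in wild type. As with Il2ra, replicate 1 lay below and replicate 2 above both wild type mice for both genes, and none of the 3 closest genes was called.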
